A study of Rattus norvegicus with 35 samples.

Results

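The Rab GTPases of vesicle traffic were described in rat converted hypoblast stem cells, by read counts of 34 single cells and 1 bulk population library. Members were the transcript records whose RefSeq identifier maps to a rat symbol made of Rab, a number and at most 2 further letters or digits. This rule found 56 of the 17201 records of the table, each with a symbol of its own. The rule reads letters and not sequence, so it also took in Rab3ip, a guanine nucleotide exchange factor for Rab proteins, and Rab5if, a gene named as a Rab5 interacting factor, neither of which is a Rab GTPase. The other 54 are Rab GTPases. Counts and sums below cover all 56 genes unless they name the GTPases alone.

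Rat embryonic stem cells had been converted in medium with EGF, PDGF and LIF and with serum at 2%, and collection took place 12 days into differentiation. All 34 cells and the bulk library carry the same cell type and day labels. RNA came from the C1 Single-Cell Auto Prep system, with Nextera XT library preparation. The labels call the bulk library a population control and name no strain, cell line, passage or separate culture, so there is 1 sample of cells and 1 of bulk. SDs describe the spread between cells, and no difference between cells and bulk could be tested.

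Rab proteins are small GTPases that sit on the cytosolic face of membranes, anchored by lipid groups, and act as switches. In the GTP-bound form they recruit effectors that move, tether and fuse vesicles, exchange factors load the GTP, and activator proteins trigger its hydrolysis. Each Rab has a preferred membrane, so the set of Rab genes a cell expresses reflects its routes of secretion, endocytosis and recycling. The hypoblast gives rise to the endoderm layers of the yolk sac, which are known for strong endocytosis in the visceral layer and for secretion of basement membrane in the parietal layer.

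Depth varied widely between cells, from 6288 to 503044 counted reads with a median of 266046, while the bulk library had 47121. Levels are given in CPM, each count scaled by the column total of its library. A gene was called detected at 5 CPM or more, which in the bulk library means any read, since 1 read is worth 21.2 CPM there. Of 7 hypoblast markers, 6 were detected in at least 17 cells, and each of 8 measured markers of pluripotent cells, fibroblasts and trophoblast was detected in at most 7. In these Rab records 67.0% of the nonzero counts in cells were even. Reads are not independent molecules, and all intervals cover counting error only. In bulk 73.7% of the nonzero Rab counts were even, and if 2 counts stand for 1 fragment, the intervals given here are too narrow and a floor of 3 fragments in bulk is 127 CPM. How the authors counted reads shared by near-identical genes is not known from the labels, so values of close paralogues such as Rab1a and Rab1b are uncertain.

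The upstream sequence of the Rab genes is shown first, for 2 paralogue pairs in which 1 member was widely detected and the other had no read in any cell. Rab7a directs late endosomes to lysosomes and Rab9a works on the route from late endosomes back to the Golgi, while Rab7b and Rab9b are their paralogues. The 250 bases before the annotated start are printed 5′ to 3′ on the strand of the gene, from RefSeq on build GRCr8, and capitals mark every CG dinucleotide. The windows are chr4:122064186-122064435 (minus strand) for Rab7a, chr13:45673195-45673444 (plus strand) for Rab7b, chrX:31609839-31610088 (plus strand) for Rab9a and chrX:105023873-105024122 (minus strand) for Rab9b.
Rab7a: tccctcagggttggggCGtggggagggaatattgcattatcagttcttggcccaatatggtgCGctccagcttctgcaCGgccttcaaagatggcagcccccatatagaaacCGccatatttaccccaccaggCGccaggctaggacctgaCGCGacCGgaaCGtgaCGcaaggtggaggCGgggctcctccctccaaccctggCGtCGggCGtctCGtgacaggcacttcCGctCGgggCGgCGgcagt
Rab7b: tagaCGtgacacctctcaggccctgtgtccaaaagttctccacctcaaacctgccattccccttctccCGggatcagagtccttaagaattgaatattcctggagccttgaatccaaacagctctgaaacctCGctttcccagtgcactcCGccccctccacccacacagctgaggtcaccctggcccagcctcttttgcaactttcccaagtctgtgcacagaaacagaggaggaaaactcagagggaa
Rab9a: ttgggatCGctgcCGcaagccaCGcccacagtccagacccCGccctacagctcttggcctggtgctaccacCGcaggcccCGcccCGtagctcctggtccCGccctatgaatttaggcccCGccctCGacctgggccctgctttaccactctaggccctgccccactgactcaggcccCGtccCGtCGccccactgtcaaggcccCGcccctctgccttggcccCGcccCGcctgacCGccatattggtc
Rab9b: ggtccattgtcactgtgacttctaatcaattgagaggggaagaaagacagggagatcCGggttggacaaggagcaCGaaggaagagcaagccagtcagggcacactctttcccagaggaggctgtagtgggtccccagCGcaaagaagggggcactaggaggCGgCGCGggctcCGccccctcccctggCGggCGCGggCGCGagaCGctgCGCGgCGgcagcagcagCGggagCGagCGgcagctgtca

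The Rab7a window holds 19 CG dinucleotides and the Rab7b window 4, but the Rab9a and Rab9b windows hold 17 and 19. A window was called rich in CG where its GC content was at least 50% and its ratio of observed to expected CG at least 0.6. Of the 56 genes, 47 had a window in the RefSeq table, matched by gene identifier. Rich windows were found for 11 of 12 genes detected in at least 17 cells, and the median ratio was 0.78. For genes detected in no cell it was 6 of 12, with a median ratio of 0.60. Over all measured genes, 75.3% of the 2479 detected in at least 17 cells and 19.9% of the 4989 detected in no cell had a rich window, and 29.3% of all 33469 windows in the table did. These are descriptions of sequence and carry no test.

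Of the 56 genes, 14 were detected in at least 17 of the 34 cells (25%, against 17% of all records), 26 in 1 to 16 cells, and 16 in no cell (28.6%, against 40.3% of all records). Among the 54 Rab GTPases, 13 were detected in at least 17 cells. They were Rab1a, Rab7a, Rab11b, Rab6a, Rab2a, Rab11a, Rab8a, Rab1b, Rab14, Rab10, Rab28, Rab18 and Rab9a. With Rab5if these make up the 14, of which a cell detected between 1 and 14 (median 11), and 22 cells detected at least 10. The widely detected genes serve the Golgi (5 of 12 measured), recycling (5 of 13) and late endosomal (2 of 11) routes and, for Rab28, the cilium. Of early endosome and regulated secretion genes, 0 of 7 on each list reached 17 cells. These counts are read against the 17% of all records. Rab20, of the early endosome list, was detected in 15 cells. Nothing on a route is drawn from lists of 7 genes.

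**Figure D1:**
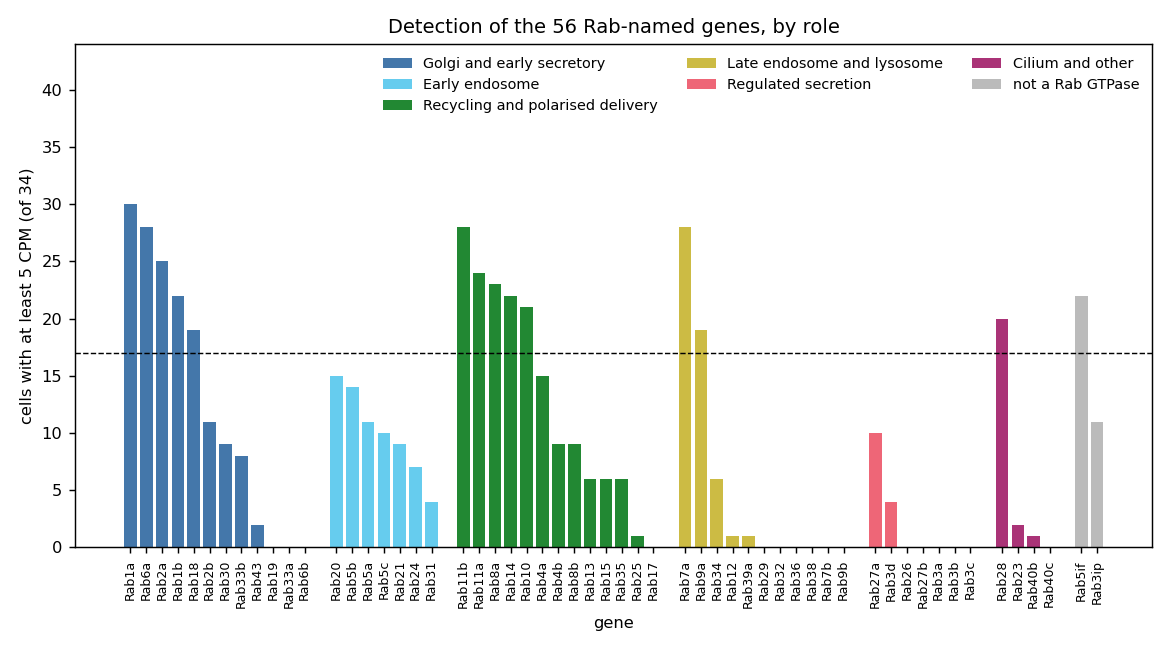
Number of cells, of 34, in which each of the 56 Rab-named genes reached 5 CPM, grouped by role. The dashed line marks 17 cells. Bars of 5 of 12 Golgi, 5 of 13 recycling and 2 of 11 late endosome genes reach it, as do those of Rab28 and Rab5if. No bar for early endosome (at most 15 cells) or regulated secretion (at most 10) does.

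Of 12 measured genes of the Golgi and early secretory route, 5 were found in at least 17 cells, and 33 cells held at least 1 of them. Rab1a, which acts in transport from the endoplasmic reticulum to the Golgi, was detected in 30 cells (88.2%, exact Clopper-Pearson 95% interval 72.5% to 96.7%). Its level ran from 0 to 4945 CPM with a median of 579 CPM and a mean of 710 ± 875 CPM (SD over 34 cells), and it was 849 CPM in bulk. The highest cell, C09, stood well above the next, C94, with 1590 CPM from 10 reads. Rab1a had no read in C03, C39, C45 and C88. Rab6a, of retrograde and intra-Golgi transport, was detected in 28 cells and ran from 0 to 410 CPM, with a median of 47.2 CPM and 255 CPM in bulk. Of the 28 cells, only C03, C10, C94 and C26 were above the bulk level, and the C94 value rests on 2 reads.

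Rab2a, which tethers vesicles between the endoplasmic reticulum and the Golgi, was detected in 25 cells at low levels, with a median of 15.9 CPM and a maximum of 127 CPM, and had no bulk read. Rab18, linked to the endoplasmic reticulum and lipid droplets, was detected in 19 cells with a median of 14.7 CPM, a maximum of 1615 CPM in C31 and 255 CPM in bulk. Rab1b, the close paralogue of Rab1a, was detected in 22 cells with a median of 16.5 CPM. Its mean of 350 CPM rested on C94, the shallowest cell, where 56 reads made 8906 CPM and 74.9% of the signal, and it was 90.6 CPM without that cell. Other Golgi genes were sparser: Rab2b in 11 cells, Rab30 in 9, Rab33b in 8 and Rab43 in 2. Rab6b, a paralogue known from neurons, had 6 reads in 6 cells, Rab33a had 1 read and Rab19 none.

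Early endosome genes were each found in a minority of cells, and none was absent, while 40.3% of all records were detected in no cell. All 7 measured genes were detected in 4 to 15 cells, and 26 cells held at least 1 of them. Rab5a, Rab5b and Rab5c, the 3 isoforms of the GTPase that drives early endosome fusion, were detected in 11, 14 and 10 cells. At least 1 isoform was found in 22 cells, 20 of them among the 25 cells with at least 50000 reads and 2000 genes, and all 3 were found together in 1 cell. Their summed level was 53.1 ± 77.7 CPM, with a median of 15.7 CPM and a maximum of 301 CPM, and the bulk library held 5 reads or 106 CPM.

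Rab20, an endosomal and phagosomal Rab, was the most widely detected gene of this list, in 15 cells. It ran from 0 in 19 cells to 466 CPM in C10, with a mean of 89.5 ± 137 CPM, and it was 212 CPM in bulk. The 19 cells without a read include C14, C30, C88 and C94, the 4 cells with fewer reads than bulk, and no grouping of cells is drawn from this. The bulk value lies inside the range of the cells. Rab21, which is known for integrin traffic, was detected in 9 cells and Rab24, linked to autophagy, in 7. Rab31, of transport between the Golgi and endosomes, was detected in 4 cells, with 57.5% of its signal in C05.

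Recycling and polarised delivery was the second list with 5 widely detected genes, of 13 measured. Rab11b and Rab11a, GTPases of the recycling endosome, were detected in 28 and 24 cells. Rab11b ran from 0 to 1645 CPM with a median of 91.3 CPM and was 127 CPM in bulk. Rab11a ran from 0 to 1397 CPM with a median of 69.4 CPM and was 318 CPM in bulk. Rab11b was highest in C17, C47, C14, C46 and C45. Of these, C14, C17 and C46 are 3 of the 4 cells with the fibroblast collagen gene Col1a2, and the other, C30, had 183 CPM. Rab11a was highest in C09, C47, C46, C30 and C14, of which C46, C30 and C14 also hold Col1a2. The C14 value was 224 CPM from 8 reads, close to the next cell, C26, with 210 CPM. The remaining cell with Col1a2, C17, had 76.9 CPM of Rab11a. All these highest cells were also shallow, with 35681 to 109541 reads for Rab11b and 27284 to 109541 for Rab11a. The median cell had 266046 reads. Other shallow cells went the other way. C88 and C94, with 12750 and 6288 reads, had no read of either gene. C31, with 95972 reads, had no Rab11b read and 62.5 CPM of Rab11a. A link of either gene with depth or with Col1a2 was not tested. Without the 4 cells with Col1a2, the ratio of the cells' mean to bulk went from 2.07 to 1.34 for Rab11b, and the excess of bulk over the cells' mean went from 2.00-fold to 2.49-fold for Rab11a.

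Rab8a, of delivery to the plasma membrane and the cilium, was detected in 23 cells with a median of 29 CPM, a maximum of 1630 CPM in C95 and 127 CPM in bulk. Rab14, which acts between the Golgi and endosomes, was detected in 22 cells, with a median of 27.2 CPM, a maximum of 126 CPM and no bulk read. Rab10, of exocytic and basolateral delivery, was detected in 21 cells with a median of 9.67 CPM. A single cell, C39, held 3286 CPM and 72.1% of its signal, and the mean was 134 CPM with it and 38.6 CPM without it. Rab4a, of fast recycling, was detected in 15 cells, Rab4b and Rab8b in 9 each, and Rab13, Rab15 and Rab35 in 6 each. Rab25, the epithelial member of the Rab11 group, was detected in 1 cell with 8 reads, and Rab17, another epithelial Rab, had 3 reads in 2 cells.

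Late endosome and lysosome genes fell into 2 widely detected genes and 9 rare or absent ones. Rab7a was detected in 28 cells and ran from 0 to 2350 CPM, with a median of 312 CPM, a mean of 543 ± 598 CPM and 212 CPM in bulk. Its highest cells were C54 with 2350 CPM and C09 with 2213 CPM. It had no read in C03, C31, C39, C45, C47 and C88. Rab9a was detected in 19 cells with a median of 12.7 CPM, a maximum of 1990 CPM in C47 and no bulk read. Rab34 was detected in 6 cells, with 71.8% of its signal in C09, and Rab12 and Rab39a in 1 cell each. Rab7b, Rab9b, Rab29, Rab32, Rab36 and Rab38, 6 of the 11 measured genes, had no read in any cell. Of all records, 40.3% were detected in no cell. Rab32 and Rab38 are known for melanosomes and other lysosome-related organelles, and Rab32 had 2 bulk reads.

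Of 7 measured genes of regulated secretion, 2 were detected in any cell and 5 in none, while 40.3% of all records were detected in no cell. With 7 genes, nothing is drawn from this count. Rab3a, Rab3b, Rab3c, Rab26 and Rab27b had no read in any library. The Rab3 proteins and Rab26 serve secretory granules and synaptic vesicles, and Rab27 proteins dock granules and multivesicular bodies. In the pooled reads of all cells, 3 of 8060038 reads would be 0.372 CPM. That value takes reads as separate draws and gives deeper cells more weight. It is no upper limit on the level in a cell. Rab3d was detected in 4 cells, with 71.1% of its signal in C13. Rab27a was detected in 10 cells (29.4%, interval 15.1% to 47.5%), from 0 to 521 CPM in C27 and 471 CPM in C15, and had no bulk read.

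Of the remaining genes, Rab28, linked to cilia, was detected in 20 cells with a median of 14.1 CPM, a maximum of 217 CPM and no bulk read. Rab23, a regulator of Hedgehog signalling, was detected in 2 cells and Rab40b in 1. Rab40c, whose group acts with ubiquitin ligases, had 5 bulk reads or 106 CPM and no read in the cells. Rab5if was detected in 22 cells with a median of 17.6 CPM and Rab3ip in 11, with 76.0% of the Rab3ip signal in C39, the cell that also held most of the Rab10 signal.

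**Figure D2:**
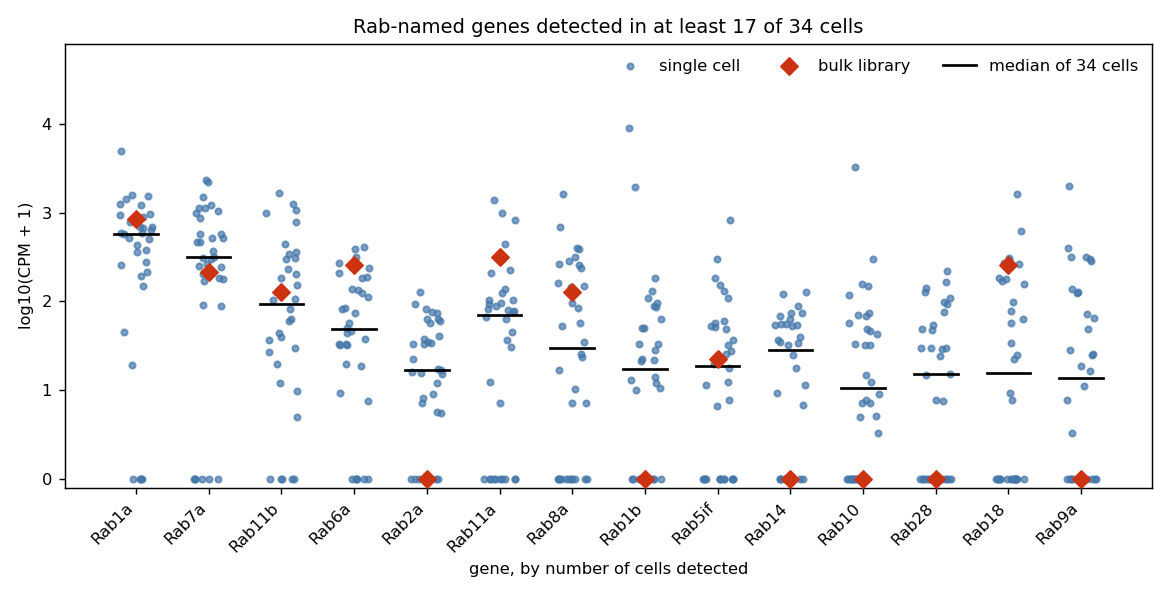
Level of each of the 14 genes detected in at least 17 cells, as log10(CPM + 1), with 1 point per cell, the bulk library as a diamond and the median of 34 cells as a line. The Rab1a median is 579 CPM, each gene has some cells at 0, and Rab2a, Rab1b, Rab14, Rab10, Rab28 and Rab9a have no bulk read. Heights are not comparable between genes, since CPM grows with transcript length.

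Paralogues were then compared within cells. Of 13 pairs listed, 12 could be compared, as Rab22a was not analysed here, and in 8 of them both genes reached 5 CPM in the same cell somewhere. Rab1a and Rab1b were detected together in 21 cells, Rab11a and Rab11b in 23 and Rab2a and Rab2b in 11. The product of the 2 genes' own detection rates would give 19.4, 19.8 and 8.09 cells, and nothing on shared expression is drawn from these counts. Every cell with Rab2b also had Rab2a. Rab8a and Rab8b were found together in 7 cells, Rab4a and Rab4b in 5, Rab5a and Rab5c in 6, Rab5a and Rab5b in 4 and Rab5b and Rab5c in 4. The pairs never detected together were Rab6a with Rab6b, Rab9a with Rab9b, Rab27a with Rab27b and Rab3a with Rab3d, in which 1 member was detected in no cell.

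The Rab11 pair was mixed in most cells. The share of Rab11a among the reads of Rab11a and Rab11b does not depend on transcript length when libraries are compared. It ran from 0% to 100% in the 30 cells with a read of either gene, with a median of 19.1%. In the 22 cells with at least 20 reads of the pair it ran from 1.96% to 95%, with a median of 27.5% and a mean of 39.9% ± 30.8 (SD over cells). In C44, 2 of 102 reads were Rab11a, and in C26, 76 of 80. Over the 30 cells, the exact 95% interval lay entirely below 50% in 16 cells and entirely above it in 7.

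In bulk, 15 of 21 reads were Rab11a, or 71.4% (interval 47.8% to 88.7%). The share was lower than this in 24 of the 30 cells, and in 16 cells the whole interval lay below the lower bound of the bulk interval. In no cell did the interval lie above the upper bound. The bulk value rests on 21 reads, and the spread between bulk libraries is unknown.

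**Figure D3:**
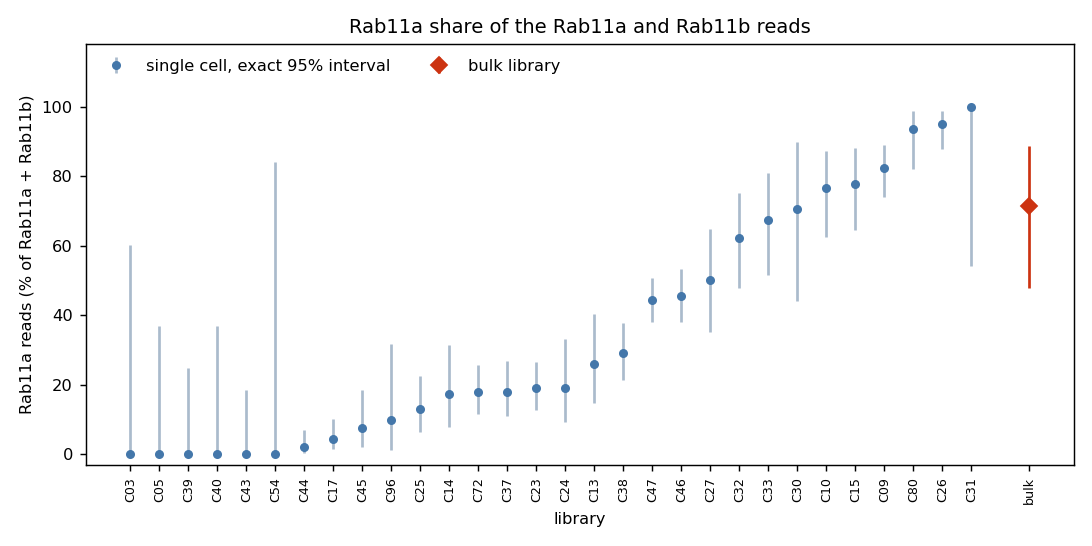
Share of Rab11a among the reads of Rab11a and Rab11b, in percent, in each cell with a read of either gene and in the bulk library, ordered by share. Bars are exact 95% intervals for the counting error. Cells run from 0% to 100%, and bulk is at 71.4%.

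Several other pairs leaned towards 1 member. In the 11 cells with at least 20 reads of Rab6a and Rab6b, the share of Rab6a was at least 97.1%. Rab8a made up 65.6% to 100% in the 14 such cells of its pair and 6 of 7 bulk reads. Rab4a made up 70.8% to 100% in 10 such cells and all 4 bulk reads. Rab1a made up 15.2% to 100% in 27 such cells, with a median of 96.7%, and all 40 bulk reads. Rab2a ran from 11.1% to 100% in 7 such cells, so that this pair was also mixed. Rab5a made up 17.4% to 100% of the reads of Rab5a and Rab5b in 7 such cells, with a median of 42.2%, and 3 of 5 bulk reads.

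The Rab genes together took 0.336% ± 0.235 of a cell's reads (SD over 34 cells), with a median of 0.294%, and 0.291% of the bulk reads (137 reads, exact 95% interval 0.244% to 0.344%). The lowest cell was C88 with 0.0157%, from 2 reads, and the highest were C09 with 1.19% and C94 with 1.11%. Rab1a was the Rab gene with the most reads in 13 cells, Rab7a in 8 and Rab11b in 4, a count that also depends on transcript length. In C94, Rab1b held 80% of the Rab reads, and in C03, Rab6a held 87.3%. The 4 cells with Col1a2 lay between 0.194% and 0.419%, inside the range of the others.

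The number of Rab genes detected in a cell ran from 1 to 25, with a median of 17. It followed the number of genes with a read, with Pearson's r = 0.93 and Spearman's rho = 0.90 over 34 cells, and r = 0.91 without the 2 cells farthest from the median. Both counts come from the same library and share its depth, and these values are descriptions with no test. Libraries were therefore set to the depth of the bulk library by the expected number of genes with a read after thinning to 47121 reads. The 4 cells with fewer reads, C14, C30, C88 and C94, were left out. The other 30 cells then held 13.8 ± 4.98 Rab genes with a read, from 3.15 in C03 to 21.1 in C13, and the bulk library held 19. Thinning takes reads as single draws, while in bulk 4536 of the 4741 records with a read had at least 2. If 2 counts stand for 1 fragment, the libraries are matched in reads and not in fragments, and cells and bulk are not at equal depth.

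Rab genes made up 0.436% ± 0.110 of the genes with a read at that depth, against 0.401% in bulk and 0.326% of all records in the table. The cells with under 8 Rab genes, C03, C31, C39, C45, C74 and C95, also had few genes of any kind, 1194 to 1947. C09 had 15.4 Rab genes among 1811 genes, or 0.849%. A mixture of all 34 cells in equal parts would hold 25.2 Rab genes at this depth, more than the 19 in bulk, and 5989 genes of any kind, against 4741 in bulk. The mixture is also drawn in single reads, so nothing is drawn from its excess over bulk.

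**Figure D4:**
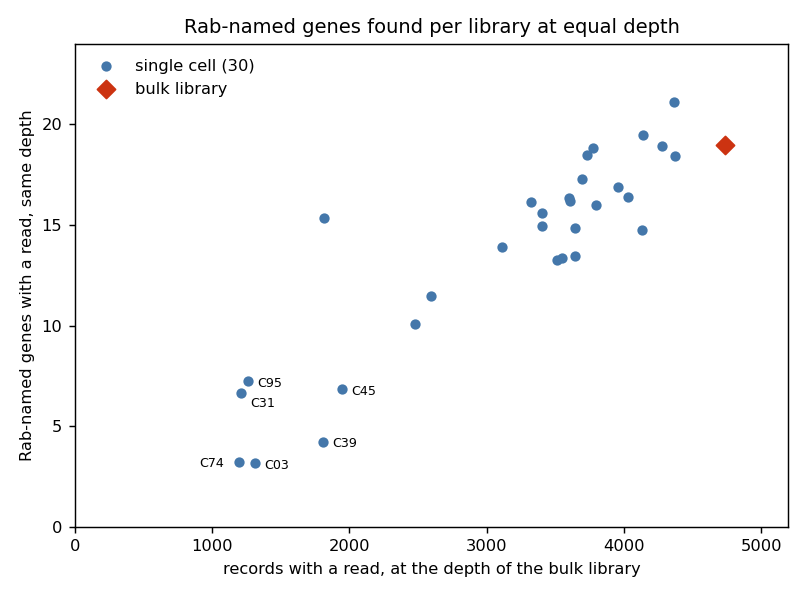
Expected number of Rab-named genes with a read against the expected number of all records with a read, after thinning each library to the 47121 reads of the bulk library. Points are the 30 cells with at least that depth and the diamond is bulk. The number of Rab genes tracks the number of records, with C09 above the other cells of its gene number.

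The bulk library held 39 Col1a1 and 40 Col1a2 reads, while these fibroblast genes were each detected in 4 cells, and the part of other cells in the bulk values was not tested. In bulk, more cells with a gene and more RNA per cell cannot be told apart. Cells and bulk were compared by the log2 ratio of the cells' mean to bulk, with 1 CPM added to each, over records where the 2 levels averaged 1 CPM or more. Of 38 Rab genes compared, 22 were at least 2-fold higher in the cells (57.9%, against 53.4% of all 9023 records compared) and 7 at least 2-fold higher in bulk (18.4%, against 21.9%). The median log2 ratio was 1.62 for the Rab genes and 1.61 for all records. A record without a bulk read passes this filter only through the cells, and is then always called higher there. Of the 22, 19 had no bulk read, so their call was set by the rule and their ratio depends on the added CPM. For 16 of these the cells' mean was also at or under 63.7 CPM, the level of 3 bulk reads, and no fold is given.

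With the genes lacking a bulk read set at that floor, 22 Rab genes could be compared, 5 at least 2-fold higher in the cells (22.7%, against 13.5% of records) and 8 at least 2-fold higher in bulk (36.4%, against 37.8%). The median log2 ratio on this scale was −0.63, against −0.45 for all records. The first share is 5 genes, of which Rab5if is no GTPase and has 1 bulk read. Only genes without a bulk read were set at the floor, so genes with some but fewer than 3 bulk reads kept a level under it. The 16 genes left out, without a bulk read and with a mean at or under the floor, had all been called higher in the cells. The −0.63 is therefore no check on the median of 1.62.

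Among genes with reads in both, Rab7a was 2.56-fold higher in the cells (interval 1.39 to 5.34, from the 10 bulk reads with the cells' mean held fixed) and 2.30-fold higher without C54. Rab11b was 2.07-fold higher in the cells, with an interval of 0.95 to 5.65 that includes equal levels, and 1.75-fold higher without C17. It was 1.34-fold higher without the 4 cells with Col1a2 and 1.20-fold higher from the summed reads of all cells. Rab5if, with 1 bulk read, was 3.00-fold higher, with an interval of 0.539 to 119, and 1.93-fold higher without C74. In the other direction, Rab6a was 2.59-fold higher in bulk (1.34 to 4.52, 12 reads), Rab20 was 2.37-fold higher (1.14 to 4.36, 10 reads) and Rab11a was 2.00-fold higher (1.12 to 3.31, 15 reads). Without C09, Rab11a was 2.62-fold higher in bulk, and from summed reads 3.49-fold. From summed reads Rab20 was 1.87-fold higher in bulk. Rab18 was 1.96-fold higher in bulk (1.01 to 3.42) and 2.99-fold without C31. With 2 counts taken as 1 fragment, the interval for Rab7a was 1.10 to 7.89, and those for Rab6a, Rab20, Rab11a and Rab18 included equal levels.

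Rab1a, with 40 bulk reads the best measured of the family, was 1.20-fold higher in bulk with an interval of 0.854 to 1.63 that includes equal levels. Rab35 (5.40-fold), Rab5a (3.54-fold) and Rab2b (2.52-fold) had higher values in bulk from 2 or 3 reads each, and their intervals include equal levels. Without C37, Rab35 was 11.7-fold higher in bulk. Of the genes without a bulk read, Rab1b was at least 5.50-fold higher in the cells, Rab10 at least 2.11-fold and Rab9a at least 1.98-fold. Without the highest cell, the bound was 1.42-fold for Rab1b and 1.10-fold for Rab9a, and for Rab10 the mean was under the floor. At the floor of 3 fragments the bound was 2.75-fold for Rab1b and 1.05-fold for Rab10, and the Rab9a mean was under it.

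**Figure D5:**
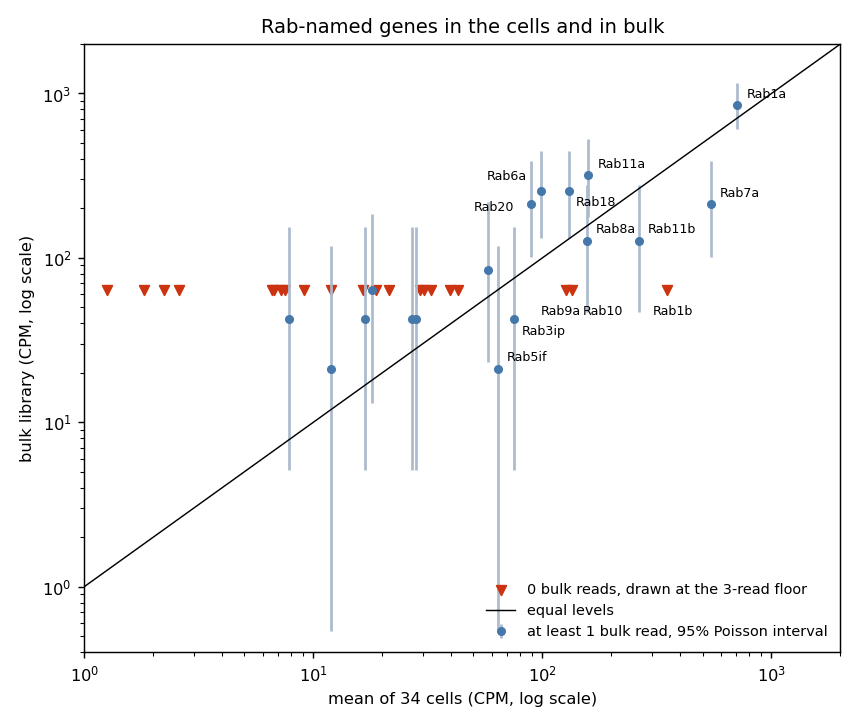
Mean of the 34 cells against the bulk library, both in CPM on log scales, for Rab-named genes. Blue points have a bulk read, with exact 95% Poisson intervals, red triangles have none and are drawn at the floor of 3 reads, and the line marks equal levels. Rab7a lies below the line and Rab6a, Rab20 and Rab11a above it. Rab40c and Rab32, with bulk reads only, are not drawn.

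Spread between cells was measured as the SD of log2(CPM + 1). The median was 2.98 over the 28 Rab genes that averaged 10 CPM or more and 2.97 over the 6483 records in the same range of means, a difference close to 0. By the squared coefficient of variation of CPM, the medians were 4.96 and 4.47. Among the 14 widely detected genes, Spearman's rho was computed between genes over the 25 cells with at least 50000 reads and 2000 genes. The 91 values ran from −0.46 for Rab2a with Rab9a to 0.59 for Rab7a with Rab28, with a median of 0.07, and 1 was above 0.5 in size. These values share library depth and carry no test, and most were weak.

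Proteins that act on Rab GTPases were described from 4 lists, with 82 of 115 genes measured. Rab3ip is counted on the list of exchange factors and also among the 56 Rab-named genes above. Of these, 11 were detected in at least 17 cells (13.4%, against 17% of all records). The shares of all records compared that were at least 2-fold higher in the cells and in bulk were 53.4% and 21.9%, and list counts below are read against these. As above, a compared gene without a bulk read is always called higher in the cells. The lists were not compared at the floor, and nothing is drawn from shares above 53.4%. Among 8 genes that escort and recycle Rab proteins, 4 reached 17 cells. Gdi2, a GDP dissociation inhibitor that withdraws Rab proteins from membranes, was detected in 30 cells at 593 ± 629 CPM and was 806 CPM in bulk. Rabggtb, a subunit of the enzyme that attaches the lipid groups, was detected in 22 cells. Of this list, 5 of 8 genes were at least 2-fold higher in the cells (62.5%, against 53.4%), 4 of them without a bulk read, and 1 was higher in bulk (12.5%, against 21.9%).

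Exchange factors were sparser, with 2 of 23 measured genes in at least 17 cells. Trappc1, a subunit of the TRAPP complexes that act on Rab1, was detected in 18 cells, Dennd5a, a DENN domain protein, in 17 and Trappc5 in 15. Of 18 compared, 13 were at least 2-fold higher in the cells (72.2%, against 53.4%), 12 of them without a bulk read, and none in bulk (against 21.9%). For GTPase activators, 2 of 18 genes reached 17 cells, Evi5 and Rabgap1, both in 22, followed by Rab3gap2 in 16. Of 15 compared, 11 were at least 2-fold higher in the cells (73.3%, against 53.4%), all without a bulk read, and 3 in bulk (20%, against 21.9%).

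Effectors had 33 measured genes, of which 3 reached 17 cells (against 17% of all records) and 10 were not detected (against 40.3%). Rabepk, also known as p40 and an effector of Rab9, was detected in 31 cells with a median of 23.6 CPM. Rab11fip1, an effector of Rab11, was detected in 21 cells at 198 ± 273 CPM, with 42.4 CPM in bulk from 2 reads. Uso1, the p115 tether of the Golgi recruited by Rab1, was detected in 20 cells. Of 23 effectors compared, 13 were at least 2-fold higher in the cells (56.5%, against 53.4%), 12 of them without a bulk read, and 8 were higher in bulk (34.8%, against 21.9%).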

How the data were processed

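Messenger RNA was measured in 34 single cells and 1 bulk library. The authors deposited whole-number read counts for each RefSeq transcript in 1 table. TopHat2 and the rn5 build were used, per the submitters' processing notes, and the counter is not stated there. Symbols were matched by accession to a RefSeq table (GRCr8), for 16209 of 17201 records, and the other 992 held 4.14% of reads and stayed in the totals. That table gives no transcript length, so levels are not compared between genes. Counts were scaled to CPM by column totals, each cell weighted equally. Shares have exact Clopper-Pearson and bulk reads exact Poisson 95% intervals, for counting error only. Thinning was computed as a hypergeometric expectation. Python 3.11.15, scipy 1.17.1 and edgeR 4.0.16 (TMM factors, an alternative) were used, and the computations were tested on simulated data. Each group is 1 sample, so no p-value is given. No doublet caller was run and no cell removed. Alternatives covered thresholds, pseudocounts, filters, scaling and sets of cells.

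Members and gene lists were chosen with earlier results of these data known. Named genes were the 10 detected in most cells, the 5 largest ratios each way, widely detected endosomal genes, paralogue pairs and the 3 most detected regulators per list, of which 1 is not reported here. Every other member is given by its cell count. Protein identity of the pairs was not analysed here. The shares of reads within pairs and the folds without the highest cell were chosen after values were seen.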

Additional observations from a re-analysis of the deposited data

How the results depend on the processing

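At 50 CPM, 4 Rab genes in place of 14 were detected in at least 17 cells, and 5 pairs in place of 8 were found in the same cell. The number at least 2-fold higher in the cells went from 22 of 38 compared to 14 of 38 with 10 CPM added. It was 12 of 28 where the levels averaged 10 CPM or more, 6 of 25 with the median over cells and 5 of 22 with bulk zeros at the floor. The number higher in bulk went from 7 of 38 to 15 of 25 with the median over cells. Shares over all records are given above for the main setting and the floor, and were not computed for the others. With the median over cells, the median log2 ratio turned from 1.62 to −2.41, while that of all records went from 1.61 to −3.53. Rab11b turned to −0.48 there. With bulk zeros at the floor, the median log2 ratio turned to −0.63, against −0.45 for all records. The floor left out 16 genes, all of them called higher in the cells before. The difference in spread from other records, 0.0031, turned to −0.0436 in the 25 deeper cells, −0.0094 without the 4 cells with Col1a2 and −0.0853 without Rab3ip and Rab5if. A gene with a read in fewer than 17 cells has a median of 0 CPM. With the median over cells, any bulk read of such a gene then sets its call as higher in bulk. Fewer genes are compared with a floor, a filter or the median over cells, and otherwise the cause was not tested. Without Rab3ip and Rab5if, 13 genes were widely detected, 21 of 36 were higher in the cells, the median log2 ratio was 1.77, the share of reads 0.322% and the number at matched depth 12.9. The floor, taking 2 counts as 1 fragment, leaving out C94, and leaving out Rab3ip and Rab5if were chosen after seeing the data. The share of reads and the number of genes at matched depth stayed within 1 SD of their main values under the alternatives run. With 47121 bulk reads, genes under 63.7 CPM may be missed there.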
